A study of Mus musculus with 10 samples.

Results

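Type I interferon-stimulated genes were examined in tumor-infiltrating Pmel CD8+ T cells by bulk RNA sequencing. The 44 genes were chosen as a list of classical targets of the type I interferon receptor, covering the IFIT, OAS and MX families, the ISG15 system, RNA and DNA sensors, interferon regulatory factors and membrane-associated effectors. All 44 are among the 34932 annotated genes of the deposited libraries, and 40 of them were among the 11781 genes that passed the filter on low counts and were tested. Ifit3b, Oas1g, Oasl1 and Mx2 did not pass it. Pmel T cells carry a transgenic receptor that recognizes gp100, an antigen of melanoma. Splenocytes of Thy1.2/Thy1.2 Pmel mice were stimulated for 24 h with gp100 peptide and IL-2 at 10 IU/mL. They were then transduced with a retrovirus made from the MSCV-IRES-Thy1.1 plasmid (MIT), either empty or carrying the reading frame of mouse BATF, a transcription factor of the AP-1 family. Both cultures went on in IL-2 at 50 IU/mL with IL-7 and IL-15 at 10 ng/mL each, and 5000000 Thy1.1+ cells were transferred into each Ly5.1 host bearing a B16-F10 melanoma. Hosts were C57BL/6 CD45.1 mice of either sex, 8 to 12 weeks old, whose own CD8+ T cells remained and were told apart by the congenic marker. At day 7 after transfer, 2000 live Thy1.1+ cells per mouse were sorted from the tumor and sequenced, giving 5 libraries labelled MIT-BATF and 5 labelled MIT-Empty.

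Type I interferons, the interferon alpha and beta cytokines, bind a receptor made of IFNAR1 and IFNAR2, which activates the kinases JAK1 and TYK2. Their activity leads to the complex ISGF3, which contains STAT2 and IRF9 and binds the interferon-stimulated response element in the promoters of target genes. The targets restrict viruses, sense foreign nucleic acid, and include regulators such as IRF7, which amplifies interferon production, and USP18, which dampens signaling at the receptor. In T cells the same pathway is known to shape expansion, effector function and, when it persists, exhaustion.

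Before the results, 3 properties of the libraries bear on every value. Batf, the gene the vector carries, was at 21.9 ± 5.54 CPM (read counts relative to TMM-scaled library size; SD, n = 5) under the label MIT-BATF and at 29.2 ± 14.8 CPM (SD, n = 5) under MIT-Empty. The log2 fold change of MIT-BATF over MIT-Empty (log2FC) was -0.41 (95% interval -1.06 to 0.23, adjusted p = 0.522, edgeR). The groups overlapped, so the level of Batf does not check the labels, and no source used here says whether vector transcripts are counted as Batf. Directions in the text are those of the libraries as labelled. The counts are also nested: gene by gene, MIT-Empty replicates 4 and 5 lay within replicates 2 and 3, and the same held in MIT-BATF. Across the 4 pairs the contained library held more counts in 0.238% to 0.57% of genes with at least 5 counts, against at least 2.78% in every other ordered pair. If reads are shared, p-values, SDs and standard errors over 10 libraries are too small, so the calls that edgeR made with all 10 libraries are also given from a fit with shared reads counted once, in which the contained library was subtracted from the one that holds it. Library totals were 10702740 to 34102086 counts under the label MIT-BATF and 6534472 to 21355657 under MIT-Empty. The limit that a count of 0 allows, 3 counts, was 0.088 CPM in the deepest library and 0.459 CPM in the shallowest. Mitochondrially encoded genes took 33.2% of the counts of MIT-BATF replicate 1, and 11.5% to 23.1% elsewhere.

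Many promoters of the list hold the element that ISGF3 binds. RefSeq promoters (GRCm38.p6, from 250 bases before to 50 after the start of each gene) were at hand for 34 of the 44 genes, and not for Usp18, Oas2, Zbp1, Ifi27, Mx1, Mx2, Rtp4, Parp9, Parp14 and Dhx58. The interferon-stimulated response element, searched on both strands as 2 copies of GAAA with any 2 bases between them (TTTC on the other strand), was found in 16 of the 34 (47.1%), against 3.44% of 32851 promoters in the table. Matches may overlap one another. A gene of the list was counted if any of its promoter windows matched, while the share over all promoters counts each window. The lines that follow give 60 bases, 5′ to 3′ on the coding strand of the gene, for 6 genes with the element, to show its spacing in the IFIT family and in typical targets, with each match in capitals.

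Ifit3, chr19:34583365-34583424, plus strand: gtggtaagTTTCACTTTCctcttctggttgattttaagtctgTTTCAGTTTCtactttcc
Ifit3b, chr19:34607761-34607820, plus strand: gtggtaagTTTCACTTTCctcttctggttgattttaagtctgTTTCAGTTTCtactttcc
Ifit1, chr19:34640769-34640828, plus strand: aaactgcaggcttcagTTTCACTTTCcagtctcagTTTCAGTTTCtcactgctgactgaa
Isg15, chr4:156200856-156200915, minus strand: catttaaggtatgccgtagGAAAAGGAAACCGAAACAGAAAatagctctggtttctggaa
Oas1a, chr5:120907526-120907585, minus strand: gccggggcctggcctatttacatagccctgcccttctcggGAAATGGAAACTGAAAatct
Rsad2, chr12:26456538-26456597, minus strand: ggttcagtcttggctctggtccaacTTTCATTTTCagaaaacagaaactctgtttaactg

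Ifit1, Ifit3 and Ifit3b each held 2 matches, and the Ifit3 and Ifit3b stretches had the same letters throughout. In Isg15 3 matches overlapped in a single run, whose base nearest the start of the gene lay 57 bases upstream of it. In Oas1a 2 overlapping matches ended 5 bases before the start. Among the genes past the threshold described next, Ifit3 held the element in its window, while these letters were not in the windows of Isg20, Samd9l and Irf7. The gamma-activated site, an element known from promoters of interferon gamma targets, was searched as TTCNNNGAA. It was found for 8 of the 34 genes (23.5%, against 8.3% of all promoters), Irf1 and Isg20 included. The AP-1 site, the kind of element BATF binds with JUN proteins, was searched as TGANTCA and was in 8 of the 34 (23.5%, against 7.81%), among them Ifit3, Ifit3b, Rsad2, Oas3, Ifitm3 and Xaf1. A match of letters is a description of the window and not a measured binding site.

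Between the groups, 5 of the 40 tested genes were higher in libraries labelled MIT-BATF and none was lower at an adjusted p under 0.05 (edgeR's quasi-likelihood test, Benjamini-Hochberg over all 11781 genes; adjusted p-values are from this test unless another is named). Those higher were Usp18, Ifit3, Isg20, Samd9l and Irf7. Over all genes tested 2.16% were called higher and 2.43% lower. DESeq2 called 10 higher (3.37% of all its genes), limma voom 11 (5.41%), and edgeR 2 without the contained libraries (0.301%) and 0 without the containing libraries (0.0634%, with 6 of the genes higher at an unadjusted p under 0.05, against 4.07% of all genes). The 0 lower calls were also 0 at an unadjusted p under 0.05, by DESeq2 and by limma voom. At an unadjusted p under 0.05, 20 of the 40 were higher, against 9.13% of all genes, and 0 were lower, against 8.97%. The fold change was positive for 36 of 40, against 50.7% of all genes, and its median was 0.45 on the log2 scale, against 0.0065 over all genes tested. The list was chosen with earlier results of these data known, so the shares set beside all genes are a description and not a test. Every MIT-BATF library lay above every MIT-Empty library for 4 of the 40 genes, against 3.28% of all genes, and none lay below (3.17% of all genes). With shared reads counted once, 39 of the genes were tested and only Usp18 was called higher (0.575% of all genes were) and none lower (0.683% were), 17 were higher at an unadjusted p under 0.05 (5.46% of all genes), 34 had a positive fold change (49.8% of all genes), 3 had every MIT-BATF library on top (1.63% of all genes) and the median was 0.47.

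**Figure D1:**
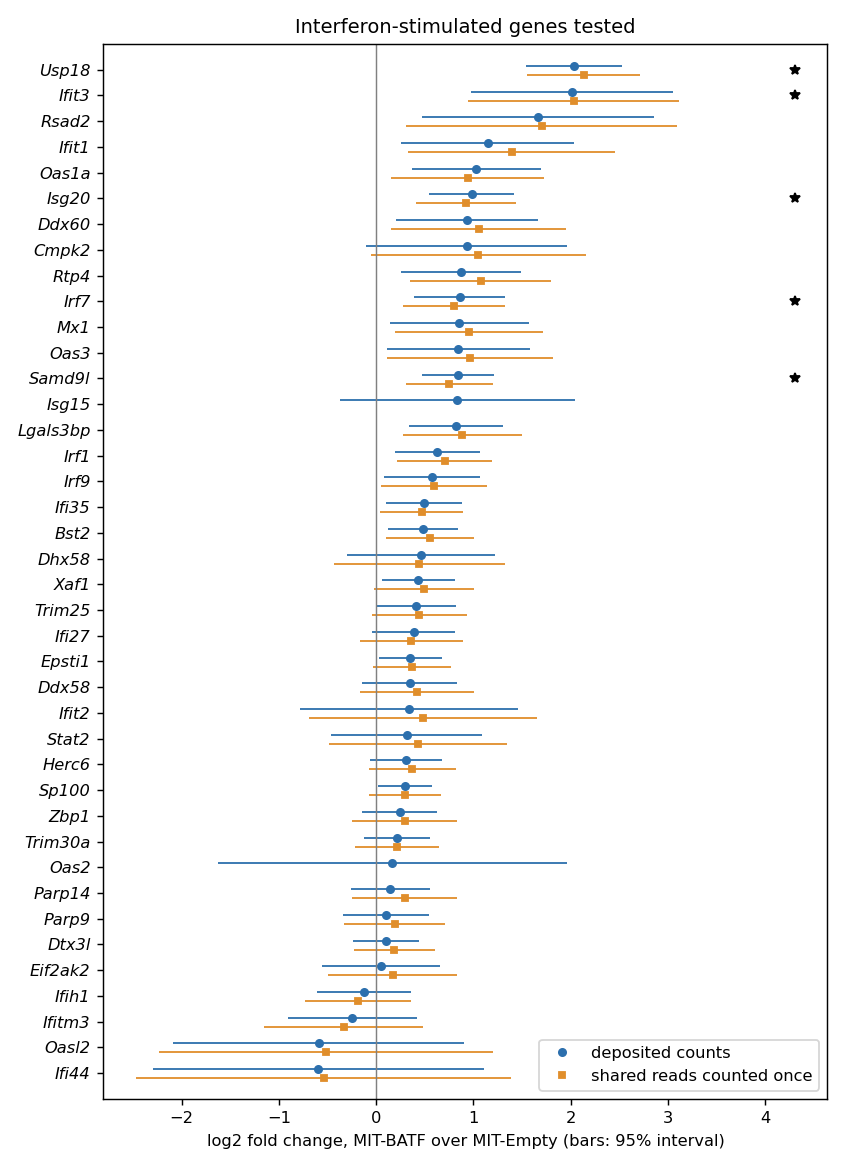
Log2 fold change of MIT-BATF over MIT-Empty libraries for the 40 tested interferon-stimulated genes (horizontal axis, bars are 95% intervals), from counts as deposited (circles) and with shared reads counted once (squares, drawn where the gene passed that filter). Stars mark the 5 genes past an adjusted p of 0.05 in the counts as deposited, and 36 circles lie to the right of 0.

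Usp18 (chr6:121245906-121270917 of GRCm38, plus strand), the protease that removes ISG15 from its targets and that blocks signaling at IFNAR2, had the largest log2FC of the 40 tested genes in value. It was at 13.8, 22.5, 29.1, 19.9 and 24.6 CPM in MIT-BATF replicates 1 to 5 and at 5.51, 6.29, 3.89, 7.11 and 4.48 CPM in MIT-Empty replicates 1 to 5. The lowest MIT-BATF library was above the highest MIT-Empty library. The log2FC was 2.03 (SE 0.23, 95% interval 1.54 to 2.53, adjusted p = 0.000226), and 2.14 with shared reads counted once (SE 0.27, adjusted p = 0.00113). It was called in each of the 10 fits that left out a library. Where that was a contained library, the library that holds its counts stayed in the fit. Usp18 missed the threshold without the 4 containing libraries (log2FC 1.78, adjusted p = 0.079).

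Of the other 3 genes of the ISG15 system none was called by edgeR, DESeq2 or limma voom, nor at an unadjusted p under 0.05. Isg15, the ubiquitin-like modifier itself, was at 0.527, 0.77, 1.21, 0.489 and 1.46 CPM in MIT-BATF and at 0.735, 0.71, 0.409, 0 and 0.581 CPM in MIT-Empty. Its libraries held 0 to 52 counts and the groups overlapped, so the log2FC of 0.83 had a 95% interval of -0.37 to 2.04 (adjusted p = 0.486), and the gene did not pass the filter with shared reads counted once. Herc6, the ligase that attaches ISG15 to proteins in mice, was at 10.5 ± 1.34 and 8.5 ± 0.423 CPM (SD of 5 libraries each; log2FC 0.31, adjusted p = 0.375). Trim25, a ubiquitin ligase that acts with RIG-I, was at 13.9 ± 1.94 and 10.6 ± 2.53 CPM (log2FC 0.41, adjusted p = 0.281).

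Ifit3 (chr19:34583531-34588731, plus strand) encodes a member of the IFIT complex, which binds viral RNA ends and blocks their translation. Its level was 2.81, 3.49, 7.56, 3.23 and 6.14 CPM in MIT-BATF and 1.35, 1.57, 0.655, 2.26 and 0.249 CPM in MIT-Empty. The groups did not overlap, although the values rested on 3 to 326 counts per library. The log2FC was 2.01 (SE 0.49, adjusted p = 0.0287), and 2.03 with shared reads counted once (SE 0.51, adjusted p = 0.0687). Ifit3 lost its call when any of 5 libraries was left out (MIT-BATF 2, 3 or 5, MIT-Empty 2 or 3), with adjusted p up to 0.0883 and a log2FC of at least 1.75. Ifit3b, a near-identical copy, held 0 to 15 counts, and how reads are split between the copies is uncertain.

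Of the other IFIT genes, Ifit1 was at 8.43, 5.35, 10.5, 1.66 and 7.33 CPM in MIT-BATF and at 4.78, 1.42, 3.15, 3.07 and 2.99 CPM in MIT-Empty. MIT-BATF replicate 4 lay among the MIT-Empty libraries (log2FC 1.15, adjusted p = 0.15), and without it Ifit1 passed the threshold (log2FC 1.39, adjusted p = 0.0397). With shared reads counted once it did not (adjusted p = 0.262). Ifit2 was at 1.67 to 4.52 CPM in MIT-BATF and at 0.581 to 6.79 CPM in MIT-Empty, with its highest value in MIT-Empty replicate 4 (log2FC 0.34, adjusted p = 0.802).

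Irf7 (chr7:141262706-141266481, minus strand), the interferon regulatory factor that drives transcription of interferon alpha genes, was at 14.2, 8.72, 11.2, 8.03 and 11.1 CPM in MIT-BATF and at 7.1, 6.59, 5.53, 5.66 and 4.48 CPM in MIT-Empty. The groups stood apart by less than 1 CPM between 8.03 and 7.1. The log2FC was 0.86 (SE 0.22, adjusted p = 0.0359), and 0.80 with shared reads counted once (SE 0.25, adjusted p = 0.167). The call was kept in 3 of the 10 fits that left out a library, those without MIT-BATF replicate 1 or 4 or MIT-Empty replicate 1, and adjusted p reached 0.0875 in the others. Irf7 overlaps the end of Phrf1 on the opposite strand, and the protocol does not mark strand. Phrf1 was at 8.62 ± 1.39 and 9.33 ± 2.87 CPM (SD of 5 libraries each; log2FC -0.10, adjusted p = 0.874).

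The other transcription factors of the list had positive fold changes short of the threshold in the main edgeR test. Irf1, which binds the same element and is also induced by interferon gamma, was at 75.3, 42.9, 66.5, 36.7 and 47.1 CPM in MIT-BATF and at 36.7, 30.0, 40.7, 25.9 and 40.1 CPM in MIT-Empty (log2FC 0.63, SE 0.20, adjusted p = 0.105). It passed by DESeq2 (adjusted p = 0.0476) and not by limma voom (adjusted p = 0.102) or with shared reads counted once (adjusted p = 0.196). Irf9, the DNA-binding part of ISGF3, was at 44.3, 17.7, 25.4, 20.4 and 25.3 CPM against 21.4, 14.7, 18.1, 14.1 and 21.0 CPM (log2FC 0.57, SE 0.23, adjusted p = 0.198). Stat2, its partner, was at 6.23, 5.35, 6.42, 1.57 and 4.15 CPM against 1.84, 4.72, 5.08, 3.56 and 3.73 CPM (log2FC 0.32, SE 0.36, adjusted p = 0.717). For all 3 genes the groups overlapped. Irf1, Irf7 and Irf9 were highest in MIT-BATF replicate 1, the library with the highest mitochondrial share, whose part in these values was not tested. Irf9 shares its first bases with the end of Rnf31 on the same strand.

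**Figure D2:**
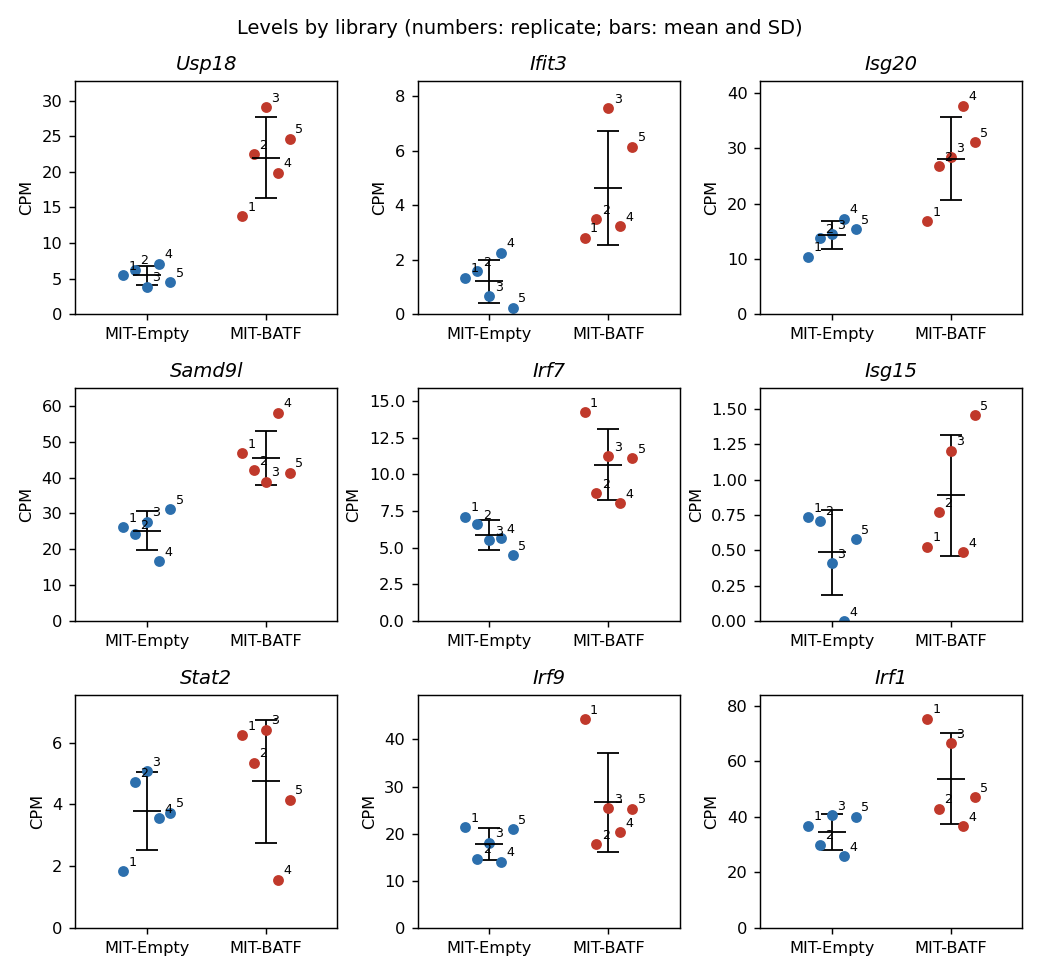
Level of 9 genes in CPM (vertical axes, each from 0) in the 5 MIT-Empty and 5 MIT-BATF libraries, 1 point per library with its replicate number, and bars for the mean and SD. The groups stand apart for Usp18, Ifit3, Samd9l and Irf7, and overlap for Isg20, Isg15, Stat2, Irf9 and Irf1.

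Isg20 (chr7:78913424-78920396, plus strand), an exonuclease that degrades viral RNA, was at 16.9, 26.7, 28.4, 37.7 and 31.1 CPM in MIT-BATF and at 10.4, 13.7, 14.5, 17.3 and 15.4 CPM in MIT-Empty. MIT-BATF replicate 1 lay just under MIT-Empty replicate 4, and the other MIT-BATF libraries were above all MIT-Empty libraries. The log2FC was 0.98 (SE 0.20, adjusted p = 0.013), and 0.93 with shared reads counted once (SE 0.24, adjusted p = 0.082). Samd9l (chr6:3372257-3399572, minus strand), an antiviral protein that restrains translation and cell growth, was at 46.9, 42.0, 38.9, 58.1 and 41.4 CPM in MIT-BATF and at 26.2, 24.3, 27.8, 16.6 and 31.2 CPM in MIT-Empty. Its groups did not overlap. The log2FC was 0.84 (SE 0.17, adjusted p = 0.0123), and 0.75 with shared reads counted once (SE 0.21, adjusted p = 0.117), where the groups overlapped, with MIT-BATF replicate 2 at 33.3 CPM and MIT-Empty replicate 5 at 33.6 CPM. Both genes kept their calls in all 10 fits that left out a library, which kept other nested pairs in the fit, and in 8 and 6 of 11 other alternatives. Isg20 lost its call with shared reads counted once and without the contained or the containing libraries (adjusted p = 0.1455 and 0.356). Samd9l lost its call in the same fits and with shared reads counted once and a replicate block. It also missed the threshold without MIT-BATF replicate 1 and MIT-Empty replicates 2 and 4.

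Among the antiviral enzymes, none of the 4 OAS genes tested passed the threshold by edgeR, and 2 were higher at an unadjusted p under 0.05, Oas1a and Oas3. These genes encode oligoadenylate synthetases, which activate RNase L, or their inactive relatives. Oas1a was at 4.56, 7.58, 7.97, 8.12 and 6.04 CPM in MIT-BATF and at 1.59, 3.09, 5.4, 2.42 and 3.9 CPM in MIT-Empty, overlapping only through MIT-Empty replicate 3 (log2FC 1.03, SE 0.31, adjusted p = 0.0791). Its call depended on the fit: it passed by DESeq2 (adjusted p = 0.0176), by limma voom (adjusted p = 0.0101) and by edgeR without MIT-BATF replicate 1 or MIT-Empty replicate 3, and not with shared reads counted once (adjusted p = 0.324). Oas3 had a log2FC of 0.85 (adjusted p = 0.203), Oas2 of 0.17 (adjusted p = 0.949) and Oasl2 of -0.59 (adjusted p = 0.726). Oas1g and Oasl1 held at most 16 and 36 counts in a library. Reads of Oas1a and Oas1g, close relatives, may be split wrongly.

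Rsad2, which encodes viperin, an enzyme that makes a chain-terminating nucleotide, was at 0.263, 2.39, 3.87, 3.91 and 2.91 CPM in MIT-BATF and at 0.49, 0.761, 0.819, 1.62 and 0.664 CPM in MIT-Empty. MIT-BATF replicate 1 was the lowest of the 10 libraries and the other 4 were above every MIT-Empty library. The log2FC was 1.67 (SE 0.56, adjusted p = 0.118), and 1.96 without MIT-BATF replicate 1 (adjusted p = 0.0105). With all libraries Rsad2 passed by DESeq2 (adjusted p = 0.037) and limma voom (adjusted p = 0.0246), and not with shared reads counted once (adjusted p = 0.308). Cmpk2, a nucleotide kinase gene next to Rsad2, had a log2FC of 0.93 (adjusted p = 0.336). Mx1, a GTPase that traps viral nucleocapsids, was at 12.2 ± 6.98 and 6.72 ± 2.1 CPM (SD of 5 libraries each; log2FC 0.85, adjusted p = 0.187). Mx2, its relative, held 0 to 40 counts and was not tested.

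None of the 6 nucleic acid sensors was called by edgeR, DESeq2 or limma voom, and Ddx60 alone was higher at an unadjusted p under 0.05. Ifih1, which encodes the RNA sensor MDA5, was at 9.48, 8.35, 6.35, 8.51 and 5.01 CPM in MIT-BATF and at 9.43, 8.93, 8.47, 8.08 and 6.06 CPM in MIT-Empty (log2FC -0.13, 95% interval -0.60 to 0.35, adjusted p = 0.83). Ddx58, which encodes RIG-I, was at 10.5, 11.6, 19.3, 8.81 and 14.8 CPM against 7.71, 9.28, 12.8, 10.7 and 10.9 CPM (log2FC 0.34, 95% interval -0.14 to 0.83, adjusted p = 0.471). Dhx58, which encodes their regulator LGP2, was at 1.49, 3.04, 5.28, 4.21 and 4.64 CPM against 1.59, 2.74, 3.27, 2.26 and 3.57 CPM (log2FC 0.46, 95% interval -0.29 to 1.22, adjusted p = 0.547). The groups overlapped for each of them.

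Zbp1, a sensor of Z-form nucleic acid that can start necroptosis, was at 45.3, 41.4, 44.5, 48.8 and 58.3 CPM in MIT-BATF and at 26.8, 38.2, 34.7, 53.3 and 48.5 CPM in MIT-Empty (log2FC 0.24, 95% interval -0.14 to 0.63, adjusted p = 0.528). Eif2ak2, which encodes the kinase PKR that stops translation, was at 8.6, 4.58, 7.58, 2.64 and 6.36 CPM against 6.24, 5.38, 5.77, 5.33 and 6.14 CPM (log2FC 0.05, 95% interval -0.56 to 0.66, adjusted p = 0.957). Its MIT-BATF libraries spread on both sides of the MIT-Empty range. Ddx60 had a log2FC of 0.94 (SE 0.34, adjusted p = 0.151). Parp9, Parp14 and Dtx3l, which act together in ADP-ribosylation and ubiquitination, were not called by any of these tools nor at an unadjusted p under 0.05, with log2FC values of 0.10, 0.14 and 0.10 and adjusted p from 0.759 to 0.852. Parp9 and Dtx3l overlap on opposite strands, and reads from the shared stretch cannot be told apart.

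The most abundant genes of the list were membrane proteins and Zbp1. Compared per length as TPM (the length-scaled values of the authors, summed per gene), Ifitm3 came first at 169 ± 14.2 TPM in MIT-BATF and 205 ± 114 TPM in MIT-Empty (SD of 5 libraries each), before Ifi27 at 172 ± 48.8 and 130 ± 30.6 TPM and Zbp1 at 45.5 ± 6.4 and 39 ± 9.83 TPM. The order was taken over all 10 libraries, and Ifitm3 and Ifi27 did not differ beyond their spread. At the other end, 15 of the 44 genes were under 1 TPM on average, Isg15, Ifit2, Rsad2 and Cmpk2 among them.

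Ifitm3, which blocks fusion of viruses in endosomes, was at 148, 121, 117, 173 and 193 CPM in MIT-BATF and at 177, 193, 90.9, 343 and 89.4 CPM in MIT-Empty. Its MIT-Empty libraries spread widely on both sides of the MIT-BATF range (log2FC -0.25, 95% interval -0.91 to 0.42, adjusted p = 0.745). Ifitm3 was highest in MIT-Empty replicate 4, the library with the highest melanoma marker sum, as given further on. Ifi27, a small membrane protein gene, was at 130, 205, 186, 268 and 242 CPM against 138, 130, 164, 138 and 219 CPM, with overlap (log2FC 0.38, adjusted p = 0.334, and 0.0462 by limma voom).

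Bst2, which encodes tetherin, the protein that holds budding virus at the membrane, was at 16.8, 22.1, 30.2, 24.4 and 22.2 CPM in MIT-BATF and at 14.1, 16.3, 17.5, 16.3 and 18.6 CPM in MIT-Empty. Of the MIT-BATF libraries only replicate 1 lay inside the MIT-Empty range (log2FC 0.48, SE 0.17, adjusted p = 0.129), and without it Bst2 passed the threshold (log2FC 0.58, adjusted p = 0.0329). With all libraries it passed by limma voom (adjusted p = 0.0293) and not by DESeq2 (adjusted p = 0.0695) or with shared reads counted once (adjusted p = 0.308). Lgals3bp, a secreted glycoprotein gene, was at 33.2 ± 8.72 and 19 ± 5.82 CPM (SD of 5 libraries each; log2FC 0.82, adjusted p = 0.0543). Rtp4, which restricts replication of some RNA viruses, was at 15.2 ± 3.09 and 8.47 ± 4.68 CPM (log2FC 0.87, adjusted p = 0.114). Both missed the threshold in the main edgeR test. With all libraries both passed it by DESeq2 (adjusted p = 0.0134 and 0.0486), by limma voom (adjusted p = 0.00741 and 0.00836) and by edgeR without a filter. Lgals3bp also passed by edgeR with replicate number as a further term and without the contained libraries. By edgeR both passed without MIT-Empty replicate 4, at log2FC values of 0.99 and 1.23 (adjusted p = 0.0226 and 0.00785), and Lgals3bp also without MIT-BATF replicate 5 (adjusted p = 0.0235). With shared reads counted once neither passed (adjusted p = 0.200 and 0.181).

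Of the remaining genes, Xaf1, Ifi35, Epsti1 and Sp100 were higher at an unadjusted p under 0.05 and not after adjustment, with log2FC values of 0.43, 0.49, 0.35 and 0.30 and adjusted p from 0.155 to 0.235. Trim30a had a log2FC of 0.21 (adjusted p = 0.528) and Ifi44 of -0.60 (adjusted p = 0.761, 95% interval -2.30 to 1.10).

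**Figure D3:**
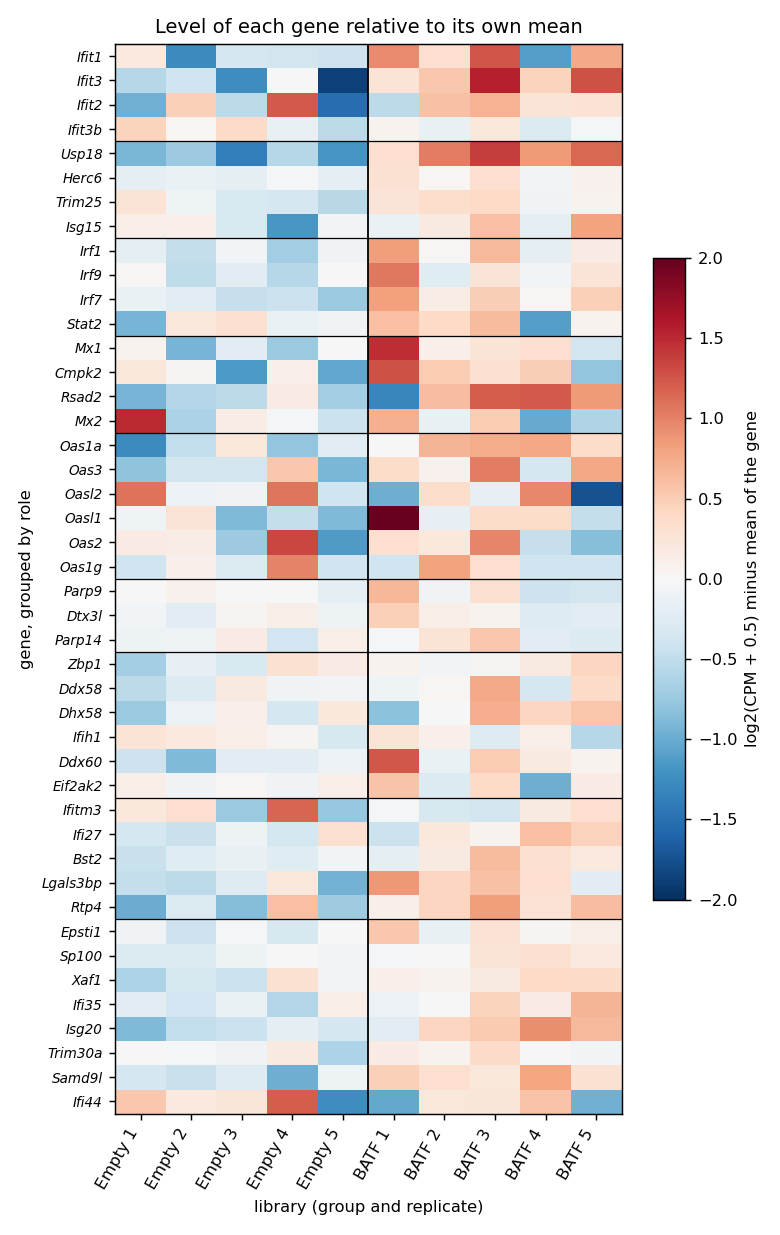
Level of each of the 44 genes (rows, grouped by role) in each library (columns, MIT-Empty left and MIT-BATF right of the line), as log2(CPM + 0.5) minus the mean of the gene over 10 libraries, with colors limited at -2 and 2. Red stands for above and blue for below the mean; MIT-BATF replicate 3 has the highest mean level of the 44 genes and MIT-Empty replicate 5 the lowest.

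The level of the list varied among libraries of the same label. The mean of log2(CPM + 0.5) over the 44 genes was 3.38, 3.32, 3.62, 3.22 and 3.24 in MIT-BATF and 2.92, 2.89, 2.87, 3.11 and 2.72 in MIT-Empty, so that the groups did not overlap. Without the 5 called genes the means were 3.26 ± 0.17 and 2.91 ± 0.14 (SD of 5 libraries each), and the groups overlapped. MIT-Empty replicate 4, at 3.12, then lay above MIT-BATF replicates 4 and 5, both at 3.11. These are descriptions of genes chosen as a list, without a test. MIT-BATF replicates 1 and 3 were each the highest library for 13 of the 44 genes, MIT-BATF replicate 4 for 7, MIT-Empty replicate 4 for 5, and MIT-BATF replicate 5 and MIT-Empty replicate 1 for 3 each, which leaves 0 for the others. The genes that peaked in replicates 1 and 3 of MIT-BATF were from several roles, as Mx1, Oasl1, Ddx60 and Irf9 peaked in replicate 1, and Usp18, Ifit1, Ifit3 and Oas3 in replicate 3.

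The rest of the pathway was read from lists of ligands, receptors, sensors, regulators and further induced genes. Of 118 such genes in the annotation 100 were tested, with 9 called higher and 3 lower, and 4 higher and 1 lower with shared reads counted once. Over all genes tested 2.16% were called higher and 2.43% lower, and 0.575% and 0.683% with shared reads counted once. The same shares apply to the lists that follow. The 14 type I ligand genes listed held at most 5 counts in any library, 7 of them had none, and none was tested, so at this depth their transcripts were at or near the limit of detection in the sorted cells. Ifng, the type II ligand, was at 101 to 338 CPM in MIT-BATF and at 107 to 487 CPM in MIT-Empty (log2FC -0.22, adjusted p = 0.816).

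Of 8 genes for receptors, kinases and Stat3 only Ifngr1, a chain of the interferon gamma receptor, was called. It was at 457, 350, 352, 390 and 297 CPM in MIT-BATF and at 192, 211, 249, 178 and 284 CPM in MIT-Empty, without overlap (log2FC 0.73, adjusted p = 0.0215, and 0.095 with shared reads counted once). The type I receptor and its kinases were not called. Ifnar1 had a log2FC of -0.16 (95% interval -0.47 to 0.15), Ifnar2 of -0.05 (-0.38 to 0.29), Jak1 of 0.16 (-0.14 to 0.46) and Tyk2 of -0.02 (-0.52 to 0.48), with adjusted p from 0.607 to 0.979.

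Upstream of the ligands, Tmem173, which encodes the DNA-sensing adaptor STING, was the only call among 13 sensing genes tested and was lower. It was at 28.7, 32.1, 37.4, 29.7 and 26.9 CPM in MIT-BATF and at 44.9, 57.9, 67.9, 50.4 and 87.4 CPM in MIT-Empty. Every MIT-BATF library lay below every MIT-Empty library (log2FC -0.995, adjusted p = 0.00549), and with shared reads counted once the groups overlapped (log2FC -0.84, adjusted p = 0.0806). Irf3, which acts below STING, had a log2FC of 0.28 (adjusted p = 0.696). None of 12 negative regulators was called by edgeR or DESeq2, 3 were higher and 1 lower at an unadjusted p under 0.05, and limma voom called 1 higher and 1 lower. Socs1, an inhibitor of JAK kinases, had a log2FC of 0.68 (adjusted p = 0.152).

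Among 52 further interferon-induced genes tested, 5 were called higher and 1 lower, with a median log2FC of 0.23. Ifit1bl1, a relative of Ifit1 in the same cluster, was at 11.3, 12.9, 21.7, 15.5 and 21.9 CPM in MIT-BATF and at 6.0, 2.49, 0.942, 4.04 and 0.415 CPM in MIT-Empty. Its groups did not overlap, and the log2FC was 2.69 (SE 0.50, adjusted p = 0.00621). It was 2.63 with shared reads counted once (adjusted p = 0.0163), and reads may be split wrongly between Ifit1bl1 and its relatives.

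Slfn1, a Schlafen gene known to slow T cell growth, was at 36.6 to 56.0 CPM in MIT-BATF and at 20.5 to 32.9 CPM in MIT-Empty (log2FC 0.99, adjusted p = 0.00346, and 0.0149 with shared reads counted once). The other calls were PYHIN genes, the family of the DNA sensor AIM2, with calls in both directions. Ifi208, Ifi213 and Ifi209 were higher, by 1.28, 0.83 and 0.61 on the log2 scale (adjusted p = 0.0177, 0.00833 and 0.0499), while Ifi211 was lower, at 11.5 ± 4.14 against 29.6 ± 13.1 CPM (SD of 5 libraries each; log2FC -1.36, adjusted p = 0.0167). Of these only Ifi208 kept its call with shared reads counted once (adjusted p = 0.0449), and the genes are close relatives in 1 cluster.

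Of 16 genes tested that are induced mainly by interferon gamma, 3 were higher, 1 was lower and the median log2FC was 0.35. Gbp2, a guanylate-binding protein, was at 66.7 ± 19.6 and 30.4 ± 8.31 CPM (SD of 5 libraries each; log2FC 1.14, adjusted p = 0.00814). Irgm1 and Igtp, immunity-related GTPases, had log2FC values of 0.99 and 0.69 (adjusted p = 0.00811 and 0.0241). With shared reads counted once, adjusted p was 0.0443 for Irgm1, 0.0523 for Gbp2 and 0.0976 for Igtp. Cd74, the invariant chain of MHC class II and a gene of antigen-presenting cells, was lower, at 38.4 ± 10.2 against 146 ± 65.7 CPM (log2FC -1.93, adjusted p = 0.00123, and 0.00756 with shared reads counted once).

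RNA of other cells differed between the groups as well. CD8 T cell markers were high throughout, with none of 7 called by edgeR, DESeq2 or limma voom or at an unadjusted p under 0.05, and a summed level of 2605 to 4073 CPM in MIT-BATF and 2907 to 4594 CPM in MIT-Empty. Melanoma markers were called lower in MIT-BATF for each of the 6 tested of 8 listed (2 with shared reads counted once), with sums of 17.4 to 30.6 CPM against 41.7 to 1783 CPM, the highest being MIT-Empty replicates 4 and 2. Macrophage and monocyte markers had 4 of 11 tested called lower (Lyz2, C1qc, Apoe and Ms4a7, of 13 listed, and 1 with shared reads counted once), with sums of 25.5 to 84.6 CPM against 43.8 to 291 CPM. Adgre1, which encodes F4/80, was at 0 in MIT-BATF replicates 1, 4 and 5, and Csf1r was detected in all 10 libraries. In bulk samples fewer cells of a type and less RNA per cell cannot be told apart. The part of other cells in the values of the interferon genes was not tested.

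MIT-Empty replicate 5 had a macrophage sum of 43.8 CPM, within the MIT-BATF range, and the lowest mean level of the 44 genes. MIT-Empty replicate 4 had the highest macrophage and melanoma marker sums and the highest mean level among the MIT-Empty libraries. MIT-Empty replicate 2 had the next highest sums, 154 and 592 CPM, and a mean level of 2.89. That was below the 2.92 of MIT-Empty replicate 1, whose sums were 122 and 117 CPM. Siglech, the defining marker of plasmacytoid dendritic cells, a main source of interferon alpha, was at 0 to 0.351 CPM in all libraries. The 8 markers listed for these cells, Bst2 among them, summed to 109 to 191 CPM in MIT-BATF and 103 to 150 CPM in MIT-Empty, most of it from Runx2, Irf8 and Bst2. Of the 4 tested, Tcf4 was called lower (log2FC -1.48, adjusted p = 0.0412, and 0.235 with shared reads counted once), and Runx2 and Bst2 were higher at an unadjusted p under 0.05. With MIT-BATF replicate 1 and MIT-Empty replicates 2 and 4 left out, 6 of 41 genes tested were called higher (1.78% of all genes were) and none lower by edgeR. They were Usp18, Ifit3, Isg20, Ifit2, Rsad2 and Rtp4, while Irf7 and Samd9l missed the threshold (adjusted p = 0.103 and 0.0648). Ifit2 went from a log2FC of 0.34 to 1.74 (adjusted p = 0.0375).

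**Figure D4:**
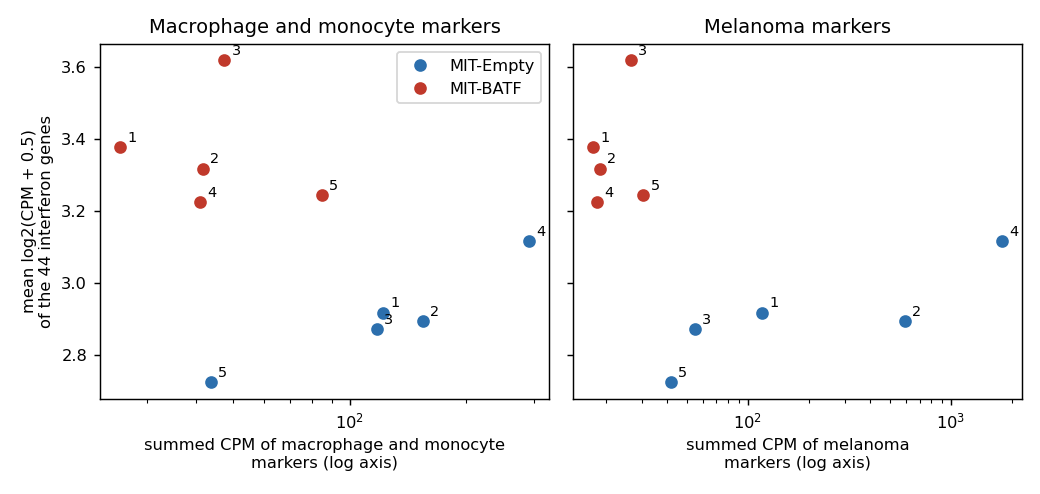
Mean log2(CPM + 0.5) of the 44 interferon-stimulated genes (vertical axis) against the summed CPM of macrophage and monocyte markers (left) and of melanoma markers (right), both on a log axis, 1 numbered point per library. The 5 MIT-BATF libraries lie above 3.2 and the 5 MIT-Empty libraries at 3.11 or lower, and MIT-Empty replicate 4 has the largest sum in both panels. Without the 5 called genes, not drawn here, the groups overlap.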

How the data were processed

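The authors sequenced modified SMART-Seq2 libraries as paired reads of 37 bp and ran nf-core/rnaseq release 1.4.2 with the mm10 genome and Salmon, of which no source used here gives the version. Per transcript, the deposited tables give estimated counts and TPM from Salmon. The TPM values deposited by the authors were summed per gene and used only to order genes by level. Estimated counts were summed per gene with the GENCODE vM21 annotation and rounded. Of 112092 transcripts 305 had no match and were left out, with at most 0.089% of any library's counts. Intervals and the limit of 3 counts cover counting error or library spread only.

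Groups and replicate numbers are those of the sample labels. The deposited files also carry a number per library, which was the same for the same replicate number in both groups. No source used here explains it, and it was not used. Whether it marks a factor that same-numbered libraries share is not known. Each library is described as 1 mouse, and p-values measure the spread between libraries. The main test was edgeR 4.0.16 (TMM, filterByExpr, quasi-likelihood F test, label as the only term) in R 4.3.3 over 11781 genes, with a threshold of 0.05 after Benjamini-Hochberg adjustment. It was tested on simulated data with libraries drawn independently, which do not cover nested counts. CPM use TMM-scaled library sizes. Alternatives were DESeq2 1.42.0, limma 3.58.1 voom with quality weights, RLE size factors, no filter, a mean count of at least 50, a replicate block, shared reads counted once, and fits without libraries. The fit without MIT-BATF replicate 1 and MIT-Empty replicates 2 and 4 was added after the data were seen. Figures were drawn with matplotlib 3.10.9 from tables made in Python 3.11.15 with pandas 2.3.3.

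The 44 genes and the other lists were chosen with earlier results of these data known. Values in every library are given for each gene past the threshold, the ISGF3 and IRF factors, the RNA sensors, Isg15, Bst2, Ifitm3 and the 3 most abundant genes by TPM. Every pathway gene called and Ifnar1, Ifnar2, Jak1, Tyk2, Socs1 and Irf3 are named, with values by library for some of them. One further pathway gene under this rule is not reported here. Ifit1, Oas1a, Rsad2, Lgals3bp, Rtp4, Phrf1, Siglech, Tcf4, Adgre1 and Csf1r fall outside this rule or were given more values after their values were seen. Lists for dendritic cells, neutrophils, B cells, NK cells, and fibroblasts and endothelium had 2 genes higher and 2 lower, 0 and 0, 1 and 1, 0 and 0, and 0 and 1 called, and the plasmacytoid dendritic cell list 0 and 1.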

Additional observations from a re-analysis of the deposited data

Results flagged for a closer look

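In 7 of 112 sets of 5 libraries (56 genes in both groups), the highest or lowest library stood apart from the other 4 by Dixon's criterion. Chance gives about 1 in 20 sets. Of these, 3 genes stood apart through MIT-BATF replicate 1, the library with 33.2% mitochondrial counts. Mx1 was at 24.3 CPM there, and the rest of its group at 6.47 to 10.8 CPM. Oasl1 was at 3.16 CPM there, and Slfn1 was lowest there at 36.6 CPM. MIT-Empty replicate 4, the library with the highest melanoma and macrophage marker sums, stood apart for Oas3 at 7.92 CPM and for Oas1g at 0.808 CPM, both the highest of their group. Mx2 was highest in MIT-Empty replicate 1 at 2.33 CPM. Cd74 was highest of the MIT-BATF libraries in replicate 4 at 56.5 CPM. Oas1g, Oasl1 and Mx2 rest on at most 16, 36 and 40 counts in a library. The part of the nesting, of the mitochondrial share and of other cells in these values was not tested.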

How the results depend on the processing

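The count of interferon-stimulated genes called higher was 5 of 40. It was 1 with shared reads counted once, 2 with shared reads counted once and a replicate block, 2 without the contained libraries, 0 without the containing libraries (6 at an unadjusted p under 0.05), 10 by DESeq2 (3.37% of all genes higher) and 11 by limma voom (5.41%). Leaving out 1 library gave 3 to 8. It was 3 without MIT-BATF replicate 2, MIT-BATF replicate 3 or MIT-Empty replicate 2, and 8 without MIT-BATF replicate 1. No gene of the list was called lower in any setting. Over all genes 540 calls became 140, 174, 96, 15, 1258 and 1336 in the same order, 903 without a filter, and 287 to 772 when 1 library was left out, the lowest without MIT-Empty replicate 2 and 321 without MIT-BATF replicate 2. The 12 calls among pathway genes became 5, 7, 1, 0, 19 and 24, and 9 to 15 when 1 library was left out. The median log2 fold change of the list was 0.45, 0.59 without the contained libraries, and 0.39 to 0.55 when 1 library was left out. The cause of these shifts was not tested, beyond the fewer libraries in the fits that drop some. Same-numbered libraries did not deviate together in every pair (correlations of 0.129, 9.9e-05, 0.222, -0.0455 and 0.0221 over genes), so the numbers were not taken to pair them. Correlations of differently numbered libraries ran from -0.168 to 0.152, and the 0.222 of replicate 3 lay above them all. Whether some of the numbers mark a pairing was not tested. With a replicate block 5 genes were called, of which Usp18, Isg20 and Samd9l were also called without it, together with Irf1 and Lgals3bp, while Ifit3 and Irf7 missed the threshold (adjusted p = 0.0958 and 0.0567), and 474 genes in all. Single genes gave the same call in 764 fits, gained it in 27 and lost it in 32, and no called fold change turned its sign. Only the 5 genes called in the main test could lose a call, and the 764 include genes not called in either fit. Among 11 alternatives and 10 fits without 1 library, Usp18 kept its call in 10 and 10. Isg20 kept it in 8 and 10, Samd9l in 6 and 10, Ifit3 in 6 and 5, and Irf7 in 5 and 3. RLE size factors moved the median of all genes by 0.0017 on the log2 scale. At these depths genes under about 1 CPM, Isg15 included, rest on few counts.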
